A study of Mus musculus with 11 samples.

Results

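Wnt ligands, their receptors and the proteins that modulate them were compared between sorted astrocytes of the brainstem (BS), cortex (CX), hippocampus (HC) and olfactory bulb (OB). Members were taken by a rule on the gene symbol, chosen with earlier results of these data known. They comprised 19 Wnt ligands, 10 Frizzled receptors, the 2 co-receptors Lrp5 and Lrp6, 8 secreted inhibitors of the Dkk and Sfrp families, 7 R-spondins and their Lgr receptors, and 6 Axin and TCF/LEF proteins. These 52 genes were drawn from the 24421 listed for each sample. Astrocytes were sorted as GFP-positive cells from C57BL/6 Aldh1l1-eGFP mice aged 16 weeks, in which a BAC transgene places eGFP under the regulatory sequence of the astrocyte gene Aldh1l1. There were 3 OB, 3 HC, 2 CX and 3 BS samples, all carrying the same transgene, with no treatment and no control other than the other regions. Values are read counts divided by a size factor for each sample, so that they compare samples but not genes of different length.

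Wnt ligands are lipid-modified secreted proteins that bind a Frizzled receptor together with Lrp5 or Lrp6. In the canonical branch this stabilises β-catenin, which acts with TCF/LEF proteins on target genes, whereas Axin is part of the complex that degrades β-catenin. Sfrp proteins bind Wnts, Dkk proteins mostly act on Lrp5 and Lrp6, and R-spondins bound to Lgr receptors protect Frizzled receptors from removal. In the brain, Wnt7a and Wnt7b are known for acting on endothelial cells of the blood vessels and the barrier they form.

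Between 2830746 and 14151670 reads per sample fell on genes, and a single read was worth 0.367 in the sample of greatest depth and 2.10 in that of least depth. Values at or under 3 reads were treated as the detection floor, which covers counting error only. A fold given as at least some value against this floor compares a region mean with it, and does not bound the spread between samples. All 8 astrocyte markers were detected in each region, and their sum lay between 93290 and 277800 in BS, 230500 and 275500 in OB, 271000 and 461700 in HC and 555900 and 630000 in CX, with Slc1a3 lower in BS by the rule below for a region against the rest. Most of this sum was Slc1a2, at 61764 of 93290 in BS replicate 1 and 541890 of 630000 in CX replicate 1. Gfap also differed across regions (adjusted p = 4.22e-05, limma F test), with means of 3673 in HC, 3506 in OB, 1455 in BS and 1099 in CX. Markers of other cell types differed between regions. Of 6 neuron markers, Snap25, Eno2 and Stmn2 were higher and Rbfox3 and Syt1 lower in BS by the same rule, which 9.03% of all genes passed there. Their sums were 1491 to 2818 in OB, 1149 to 2139 in HC, 2043 to 2479 in CX and 2258 to 3283 in BS. The summed olfactory ensheathing cell markers lay between 1730 and 2196 in OB and at 263 or lower elsewhere. Olfactory sensory neuron markers summed to at least 269.9 in OB and to at most 6.13 elsewhere, and neuroblast markers to at least 617 in OB and at most 217 elsewhere. All 5 oligodendrocyte markers differed across regions, with sums of 8833 to 14890 in OB, 17400 to 37990 in HC, 17500 to 19140 in CX and 50200 to 86120 in BS. Choroid plexus markers summed to 46.7 to 54.5 in OB, 71490 to 144900 in HC, 1671 to 4922 in CX and 51490 to 243000 in BS. Within the BS, replicate 1 stood apart, with a fibroblast marker sum of 2157 against 300.5 and 208 in the other replicates, and with the highest choroid plexus sum. In such sorted bulk samples, fewer cells of a type and less RNA per cell cannot be told apart. The part of these marker differences in the OB, HC, CX and BS contrasts was not tested. It was not stated whether replicates were separate animals, so that p-values measure the spread between these samples.

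Of the 52 members, 39 had enough reads to be tested and 15 of these (38.5%) differed across the 4 regions by limma's moderated F test at an adjusted p under 0.05. The same test called 16.5% of the 13875 genes tested. Members called were the ligands Wnt5a, Wnt6, Wnt7a, Wnt8b and Wnt9a, the receptors Fzd2, Fzd4 and Fzd10, the inhibitors Dkk3, Sfrp1 and Sfrp5, the receptors Lgr4, Lgr5 and Lgr6, and the transcription factor Tcf7l2. Without BS replicate 1 the count was again 15. Without BS replicate 3, the sample whose omission lowered it most, it was 11. The share of all genes called is not given for these omissions, so that a fall over all genes was not set beside it. Among the 13 members not tested, Dkk1, Dkk4, Rspo4, Wnt3a and Wnt8a had no read in any sample. Wnt1, Wnt2 and Wnt11 never exceeded 3 reads in a sample. Wnt10b, Wnt16, Wnt9b, Dkk2 and Wnt5b were detected sparsely, with between 6 and 36 reads over all samples. Of the 36 Wnt5b reads, 32 lay in 1 sample, as did 17 of the 18 Wnt9b reads.

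Each region was then compared with all remaining samples as 1 group. The spread in this test also holds differences among the other regions, and so do its SE and p-values. Dkk3 in CX, for example, had an SE of 1.22 against the rest and of 0.27 against the HC, where the spread was taken within regions. A regional difference needed an unadjusted p under 0.01 with more than a 1.5 fold change, and 2 or more replicates of a region had to exceed a value of 5. The limits on p and fold follow the methods of the study, which set the limit of 5 on RPM, reads scaled to the size of the library, whereas here it applies to the normalized value and is lower. With over 5 RPM from the recovered reads, a limit added after the data were seen, Wnt10a and Wnt9a in OB, Rspo2 in HC and Fzd10 and Wnt8b in BS no longer passed, which left 5 members in OB (7.36% of all genes), 3 in HC (1.15%), 3 in CX (2.43%) and 6 in BS (8.30%). The OB had 7 such members, of which Lgr5, Wnt6, Wnt7a, Tcf7l1 and Wnt10a were higher and Fzd4 and Wnt9a lower. Of all tested genes, 8.04% passed this rule in OB, 4.15% as higher and 3.89% as lower. The BS had 8, with Sfrp5, Fzd10, Lgr6, Wnt5a and Wnt8b higher and Dkk3, Fzd2 and Lgr4 lower, against 9.03% of all genes, 3.98% higher and 5.05% lower. The HC had 4, namely Rspo2, which was higher, and Fzd5, Lgr6 and Wnt7a, which were lower, against 1.28% of all genes, 0.281% higher and 1.00% lower. Sfrp1 was higher and Fzd6 and Lrp5 were lower in CX, where the background was 2.77%, with 1.02% higher and 1.74% lower. The median log2 fold change of the 39 tested members was 0.03 in OB, -0.11 in HC, 0.14 in CX and 0.10 in BS, beside 0.02, 0.02, -0.03 and 0.02 over all tested genes.

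With the adjusted p in place of the unadjusted one, limma called 5 members in OB (4.54% of all genes), 5 in BS (5.31%), 0 in HC (0.00%) and 0 in CX (0.0144%). Single samples decided these counts, and the shares of all genes moved as well. The OB count was 0 (1.89% of all genes) without OB replicate 2, where 13 members had an unadjusted p under 0.05 (12.6%). It was 1 (2.01%) without OB replicate 3 and 3 (2.31%) without OB replicate 1. The BS count was 2 (5.98%) without BS replicate 2, 3 (2.29%) without BS replicate 1 and 3 (2.20%) without BS replicate 3. By edgeR the count was 3 in OB (4.38%) and 3 in BS (4.12%). In HC, 9 members had an unadjusted p under 0.05 (5.69% of all genes), and by the adjusted rule edgeR called 0 (0.00%) and DESeq2 called 3 (0.670%). In CX, 9 had an unadjusted p under 0.05 (9.89%), and edgeR and DESeq2 called 0 each (0.0144% and 0.886%). The CX count by limma was 1 (0.102% of all genes) without BS replicate 1. When a region was set against the mean of the other region means, with the spread taken from within regions, limma called 9 members in OB (9.33%), 6 in HC (2.03%), 5 in CX (4.14%) and 10 in BS (13.2%) at the adjusted p.

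By the unadjusted rule, leaving out CX replicate 1 or CX replicate 2 left 0 members past the unadjusted thresholds in CX, where 2 and 5 members had an unadjusted p under 0.05, beside 4.41% and 6.13% of all genes. Leaving out OB replicate 1, HC replicate 1 or HC replicate 2 left 1 in HC. There 4.84%, 4.14% and 4.23% of all genes had an unadjusted p under 0.05, beside 5.69% with all samples. Without OB replicate 3, HC replicate 3, BS replicate 2 or BS replicate 3 the HC count was 2, beside 4.83%, 4.38%, 5.47% and 6.30% of all genes under 0.05. Without BS replicate 3 the BS count was 4, beside 16.1% of all genes under 0.05 in BS and 21.3% with all samples.

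**Figure D1:**
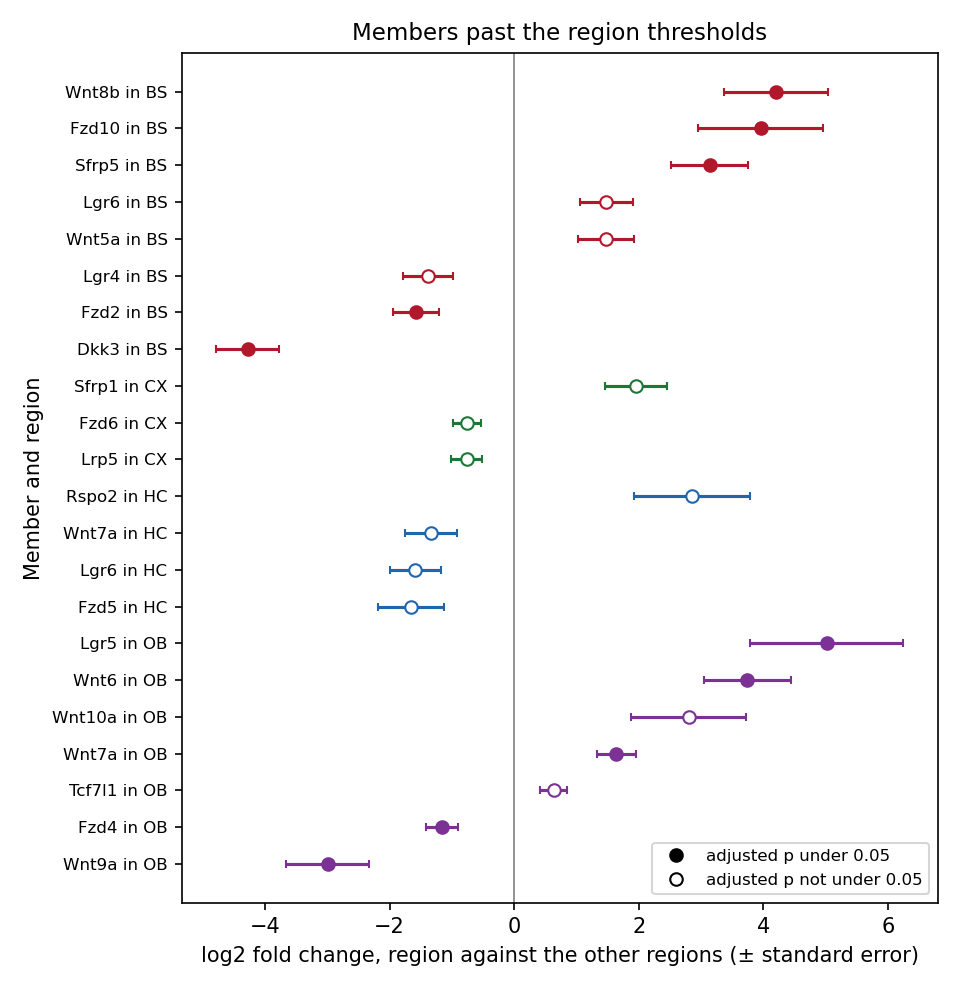
Log2 fold change on the log2(value + 1) scale (horizontal axis, bars are ± 1 standard error) of each member past the unadjusted thresholds in a region (vertical axis) against the other regions pooled, coloured by region (OB purple, HC blue, CX green, BS red). Filled points have an adjusted p under 0.05, which holds for 5 members in OB and 5 in BS, and for 0 in HC and CX.

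Promoter sequences are shown for the members with the lowest p among those higher in OB (Wnt6, Wnt7a) and in BS (Sfrp5, Wnt8b), as examples of both directions of the contrast between OB and BS. Each is the stretch of 250 bases before the RefSeq start site in GRCm38.p6, read 5′ to 3′ on the strand of the gene. They lie at chr1:74771642-74771891 (plus strand, Wnt6), chr6:91411354-91411603 (minus strand, Wnt7a), chr19:42202253-42202502 (minus strand, Sfrp5) and chr19:44493222-44493471 (plus strand, Wnt8b). Capitals mark matches, on either strand, to the TCF/LEF core CTTTGAT, the NFI core TTGGC and the homeodomain core TAATTA, motifs chosen with the data known.
Wnt6: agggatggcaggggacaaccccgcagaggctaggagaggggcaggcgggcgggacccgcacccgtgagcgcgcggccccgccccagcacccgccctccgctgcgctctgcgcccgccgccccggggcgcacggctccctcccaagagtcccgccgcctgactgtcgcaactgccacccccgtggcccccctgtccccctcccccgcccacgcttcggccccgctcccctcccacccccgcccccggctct
Wnt7a: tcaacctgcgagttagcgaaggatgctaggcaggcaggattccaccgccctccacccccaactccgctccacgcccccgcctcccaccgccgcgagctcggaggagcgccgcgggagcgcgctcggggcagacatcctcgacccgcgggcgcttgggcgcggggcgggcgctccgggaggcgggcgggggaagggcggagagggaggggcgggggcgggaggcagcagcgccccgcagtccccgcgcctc
Sfrp5: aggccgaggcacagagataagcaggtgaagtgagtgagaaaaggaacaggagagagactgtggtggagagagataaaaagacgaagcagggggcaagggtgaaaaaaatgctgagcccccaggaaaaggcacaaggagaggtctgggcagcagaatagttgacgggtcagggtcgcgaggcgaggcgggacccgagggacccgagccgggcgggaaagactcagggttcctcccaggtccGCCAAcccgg
Wnt8b: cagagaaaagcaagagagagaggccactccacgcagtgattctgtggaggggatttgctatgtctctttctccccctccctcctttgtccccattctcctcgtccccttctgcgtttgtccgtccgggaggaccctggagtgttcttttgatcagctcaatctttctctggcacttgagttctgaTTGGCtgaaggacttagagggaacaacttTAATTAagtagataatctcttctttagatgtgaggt

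The OB-high pair had GC-rich promoters, with 79.6% G and C for Wnt6 and 77.6% for Wnt7a. Sfrp5 had 59.6% and Wnt8b 48.4%, beside a median of 66.8% over the 34 members with a promoter in the table and 52.4% over all 27025 genes. No letters of the 3 motifs were found in the Wnt6 and Wnt7a windows. Sfrp5 held 1 NFI core, which started 10 bases before the start site. Wnt8b held 1 NFI core 65 bases and 1 TAATTA 36 bases before it. The NFI core was found in 16 of the 34 members' windows and in 45.3% of all genes, TAATTA in 1 member and 5.65% of all genes, and CTTTGAT in 2 members, Wnt5b and Wnt11, and 3.72% of all genes. These matches are a description of letters and not of binding.

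Among the ligands, 10 of 19 were tested and 5 differed across regions. Wnt7a (chr6:91363981-91411363) was the ligand of highest mean level per kilobase of exon in each region. Its values were 392, 469 and 484 in OB, 78.7, 90.4 and 135 in HC, 264 and 146 in CX and 138, 222 and 147 in BS. All OB samples lay above every other sample, and all HC samples lay below the rest. In OB it was 1.64 ± 0.31 (SE) higher on the log2 scale than in the other regions pooled (adjusted p = 0.0067, limma). The OB exceeded the HC by 2.17 ± 0.28, the CX by 1.18 ± 0.31 and the BS by 1.43 ± 0.28 (SE), with adjusted p = 0.000178, 0.0422 and 0.00275 by limma, whereas the HC, CX and BS did not pass the test against each other. As a regional difference in HC its log2 fold change was -1.33 ± 0.41 (SE, adjusted p = 0.673), and this call was lost without OB replicate 1, HC replicate 1 or HC replicate 2, where the log2 fold change was -1.24, -1.17 and -1.27.

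Wnt7b, a close relative of Wnt7a and the highest of the ligands that did not pass the test, had values of 81.4, 175 and 159 in OB, 115, 152 and 174 in HC, 237 and 238 in CX and 105, 315 and 103 in BS (adjusted p = 0.511 across regions). The ranges of the OB, HC and BS samples overlapped. Of the summed value per kilobase over the 19 ligands, Wnt7a held 69.3% ± 2.46 (SD, n = 3) in OB, 39.5% ± 4.55 (SD, n = 3) in HC, 47.9% ± 11.3 (SD, n = 2) in CX and 43.6% ± 5.22 (SD, n = 3) in BS. Wnt7b held 13.5% ± 3.42 in OB (SD, n = 3) and 37.6% ± 4.99 (SD, n = 3) in HC. The lowest OB share of Wnt7a, 66.7%, exceeded the highest share elsewhere, 55.96% in CX replicate 1.

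Wnt6 and Wnt10a lie next to each other on chromosome 1 on the plus strand, with 6193 bases between them. Wnt6 had values of 17.4, 43.4 and 30.7 in OB, 4.37, 0.913 and 0 in HC, 2.51 and 1.53 in CX and 1.05, 2.003 and 0 in BS, from 141 reads in all. Every OB sample exceeded every other sample. The log2 fold change in OB was 3.74 ± 0.70 (SE, adjusted p = 0.00613, limma). Across regions its adjusted p was 0.0129, and it rose to 0.0966 without OB replicate 2 and to 0.0794 without OB replicate 3. Wnt10a had values of 26.1, 0.789 and 15.6 in OB, 2.499, 0 and 1.83 in HC, and 0 in each CX and BS sample. OB replicate 2 was lower than HC replicates 1 and 3, so that the groups overlapped. With an adjusted p of 0.113 it was past the unadjusted OB thresholds only, at a log2 fold change of 2.80 ± 0.92 (SE), and it missed them, at 2.75, without HC replicate 2 and without any of BS replicates 1, 2 and 3, and with a pseudocount of 0.25, at 4.11. Without OB replicate 1 or OB replicate 3 it had too few reads to be tested.

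Wnt8b, a ligand known from patterning of the embryonic brain, was detected mainly in BS. Its values were 7.36, 80.1 and 27.4 in BS and 0.625, 1.83 and 3.30 in HC, and it had no read in any OB or CX sample. The lowest BS sample lay above the highest sample elsewhere, but the BS samples themselves spread from 7.36 to 80.1. The log2 fold change in BS was 4.21 ± 0.84 (SE, adjusted p = 0.0102, limma). Against a floor of 3 reads per sample, the BS mean was at least 15.9-fold higher than the OB and at least 9.15-fold higher than the CX, and without BS replicate 2 at least 7.19-fold and 4.15-fold. Without BS replicate 2 or BS replicate 3, Wnt8b had too few reads to be tested, so that its p-value rests on both. Without BS replicate 1 the log2 fold change was 5.05. The choroid plexus marker sums were 243000, 51490 and 117700 in BS replicates 1, 2 and 3, and the part of those cells was not tested.

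Wnt5a, which acts largely through the non-canonical branch, had values of 97.8, 148 and 101 in BS, 63.0, 65.5 and 50.6 in OB, 12.5, 42.0 and 41.1 in HC and 25.1 and 58.3 in CX. All BS samples lay above the rest. It differed across regions (adjusted p = 0.038, limma), with the BS above the HC by 1.98 ± 0.48 (SE, adjusted p = 0.0254, limma) and no other pair past the test. This call rested on single samples: the adjusted p across regions was between 0.0515 and 0.0999 without any one of OB replicates 1, 2 and 3, CX replicate 1 and BS replicates 1, 2 and 3, and 0.0585 with no filter on low values. The regional log2 fold change in BS was 1.48 ± 0.44 (SE, adjusted p = 0.0697), and it missed the thresholds without any one BS replicate, at 1.58, 1.29 and 1.56.

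Wnt9a was the ligand lower in OB. It was at 0, 0 and 3.23 in OB, 6.87, 9.13 and 8.07 in HC, 18.9 and 16.9 in CX and 30.5, 6.01 and 12.6 in BS, from 113 reads. Each OB sample lay below every other sample. Its log2 fold change in OB was -2.997 ± 0.668 (SE, adjusted p = 0.0195, limma). Across regions the adjusted p was 0.0271, and 0.143 by edgeR and 0.052 with a pseudocount of 5. It lay between 0.0501 and 0.120 without any one of OB replicates 1 and 2, CX replicates 1 and 2 and BS replicate 3. The other tested ligands, Wnt2b, Wnt3 and Wnt4, had values of at most 19.8 in any sample and were not called.

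**Figure D2:**
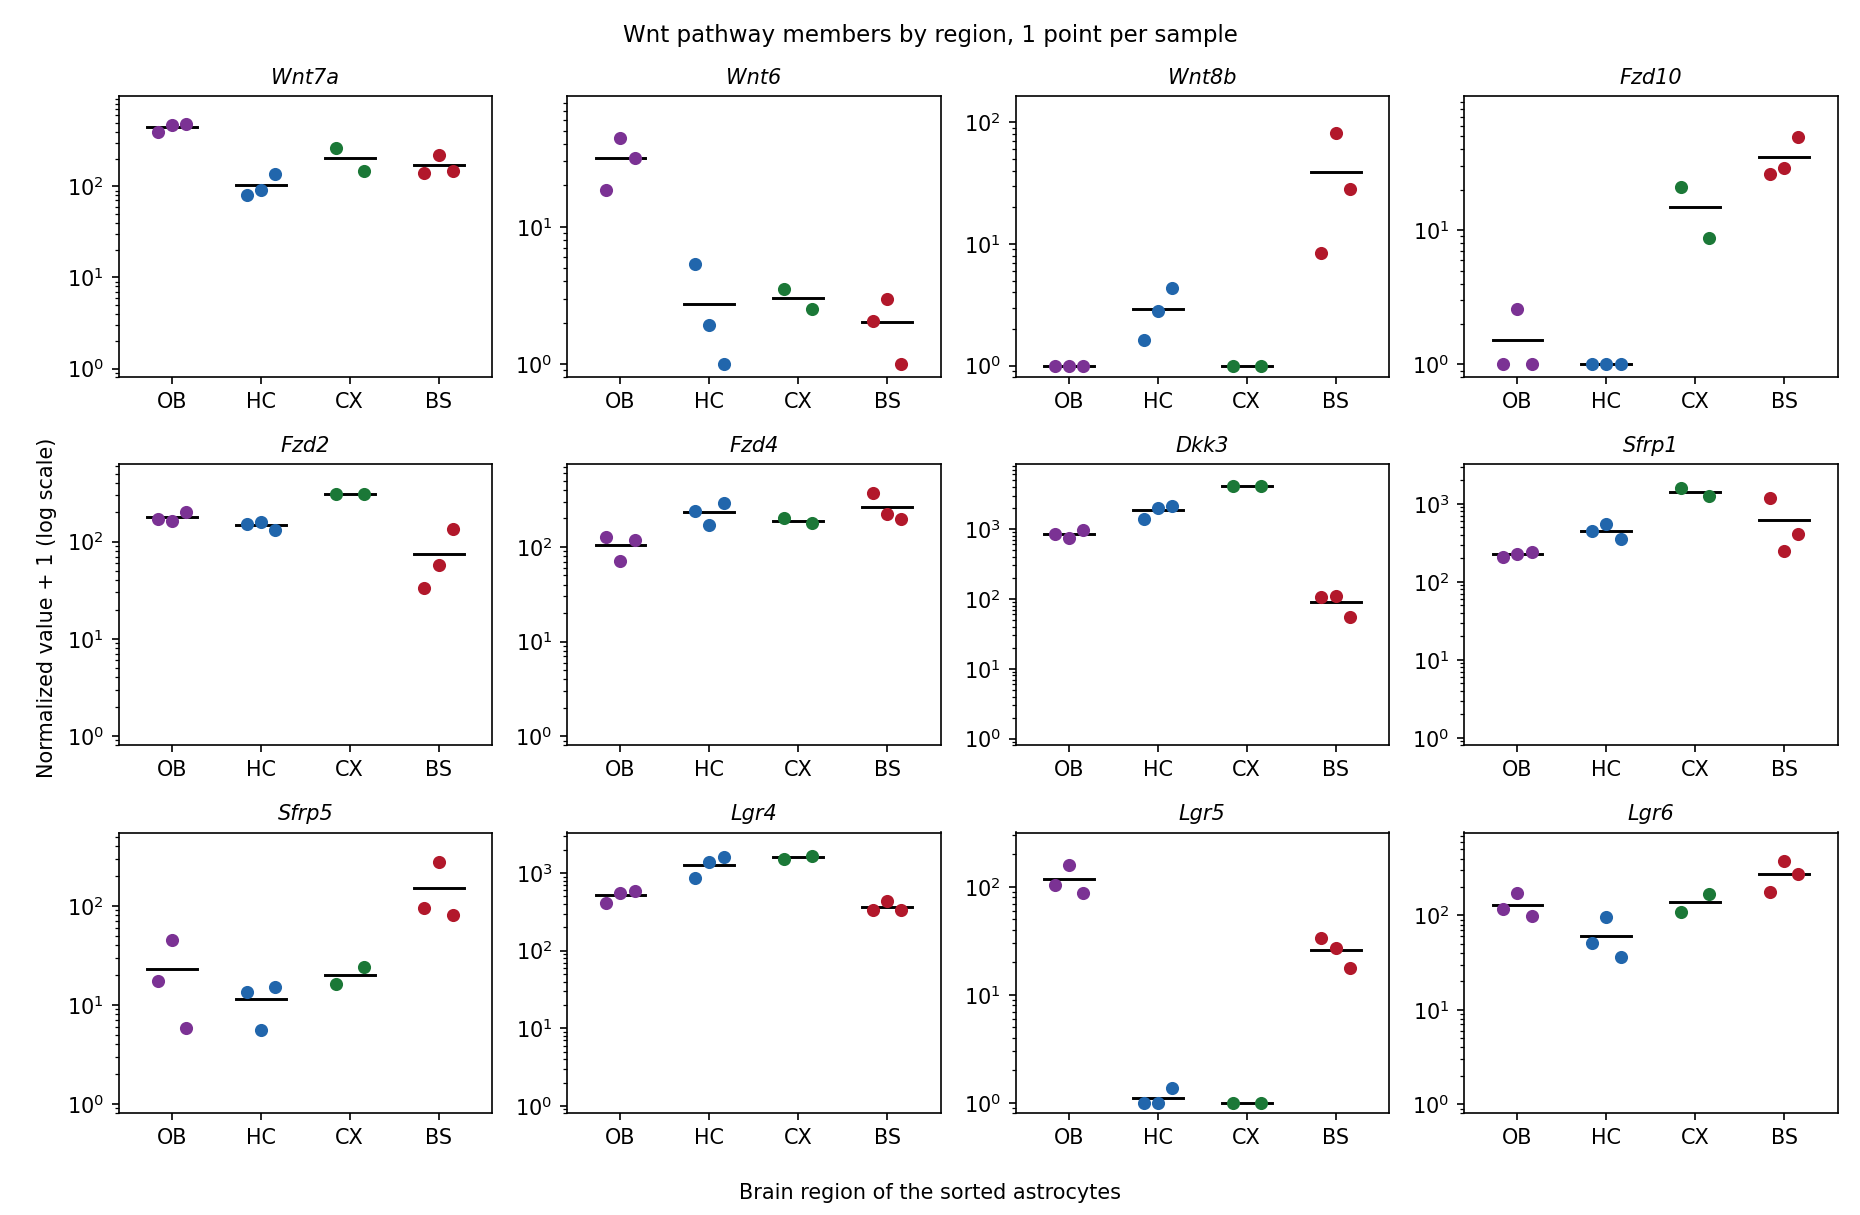
Normalized value + 1 on a log scale (vertical axis) of 12 members called across regions, by brain region (horizontal axis). Each point is a sample and each line a region mean. Wnt7a, Wnt6 and Lgr5 were highest in OB samples, Wnt8b, Fzd10 and Sfrp5 in BS samples, and Dkk3 fell from 4138 or more in CX to 108.2 or less in BS.

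All 10 Frizzled genes, which encode the membrane receptors of Wnts, were detected and tested, and Fzd2, Fzd4 and Fzd10 differed across regions. Fzd10 (chr5:128600844-128604093) had values of 25.2, 28.1 and 48.4 in BS and 20.1 and 7.67 in CX. It had no read in HC and a value of 1.58 in OB replicate 2 alone among the OB samples. The BS lay above all other samples and the CX above all OB and HC samples. Its log2 fold change in BS was 3.96 ± 1.00 (SE, adjusted p = 0.0344, limma). Against the floor of 3 reads per sample, the BS mean was at least 17.8-fold and the CX mean at least 7.29-fold higher than the HC. Without CX replicate 1 the latter was at least 4.02-fold. The CX did not pass the test against the HC (adjusted p = 0.0573) or the BS (adjusted p = 0.420). The regional BS call rests on 84 reads, and it was lost with edgeR, with DESeq2 and without BS replicate 3, where the unadjusted p was 0.0254, 0.0395 and 0.0110.

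Fzd2 followed another order. Its values were 305 and 309.7 in CX, 169, 162 and 202 in OB, 151, 159.8 and 130.2 in HC and 32.6, 56.1 and 133 in BS. Both CX samples lay above the rest, and BS replicate 3 overlapped the HC. The BS was lower than the CX by 2.28 ± 0.41 (SE) on the log2 scale (adjusted p = 0.0023, limma) and lower than the OB by 1.49 ± 0.37 (SE, adjusted p = 0.0131, limma). As a regional difference the log2 fold change in BS was -1.58 ± 0.37 (SE, adjusted p = 0.0247), and without BS replicate 1 it was -1.12, where an unadjusted limma p of 0.01001 ended the call.

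Fzd4, a receptor of Wnt ligands and of norrin that is known from blood vessels, was lowest in OB, at 125, 69.5 and 117. It measured 239.9, 171 and 289 in HC, 201 and 176 in CX and 370.1, 220.4 and 198 in BS. No OB sample reached the lowest value elsewhere. The OB was lower by 1.16 ± 0.26 (SE) on the log2 scale (adjusted p = 0.0184, limma), and summed endothelial markers overlapped between OB (226 to 1046) and the other regions (332 to 2279), and their part in this difference was not tested. Their values were 1046, 691 and 226 in OB, 2279, 1078 and 339 in HC, 332 and 1263 in CX and 1047, 1196 and 1454 in BS, so that the OB mean was the lowest. The difference across regions had an adjusted p of 0.0196, and of 0.114 without OB replicate 2.

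Fzd3, which acts in axon guidance, had values from 940 in CX replicate 2 to 2580 in BS replicate 2 and did not pass the test across regions (adjusted p = 0.599). Per kilobase it held 33.5% of the Frizzled sum in OB, 33.7% in HC, 26.2% in CX and 36.6% in BS, the highest mean share except in CX, where Fzd2 held 26.8%. Fzd2 held 6.19% in BS. The mean summed level per kilobase of the 10 receptors lay between 283 ± 23.4 (SD, n = 3) in HC and 332 ± 60.3 (SD, n = 3) in BS.

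Fzd5 and Fzd6 were past regional thresholds but did not pass the F test across regions. Fzd5 had values of 21.9, 3.65 and 43.7 in HC, with 41.1 to 69.1 in the other samples, so that HC replicate 3 overlapped the other regions. Its log2 fold change in HC was -1.66 ± 0.53 (SE, adjusted p = 0.673), and it was -0.73 without HC replicate 2. The Fzd5 call was likewise lost without any one of OB replicates 1 and 3, HC replicate 1, CX replicates 1 and 2 and BS replicates 2 and 3, at -1.60 to -1.88, and with edgeR and DESeq2, at -1.14 and -1.16. Fzd6 was at 79.2 and 99.7 in CX and at 122 to 188 elsewhere, with no overlap. The log2 fold change of Fzd6 in CX was -0.75 ± 0.22 (SE, adjusted p = 0.298), and -0.59 and -0.92 without CX replicate 1 and CX replicate 2, where the call was lost. Of its region pairs, the CX against the BS passed the test, at -0.91 ± 0.26 (SE, adjusted p = 0.0382, limma). Fzd1, Fzd7, Fzd8 and Fzd9 were not called in any comparison.

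Neither co-receptor passed the test across regions, although both had an unadjusted p under 0.05. Lrp6, the higher of them, had values between 544 and 1277 (adjusted p = 0.162). Lrp5 measured 91.7 and 104 in CX, 216, 168 and 209.5 in OB, 163, 119.7 and 169 in HC and 145, 206 and 128 in BS. The CX samples lay below all others. Its regional log2 fold change in CX was -0.76 ± 0.25 (SE, adjusted p = 0.347), and the call was lost without any one of OB replicates 1, 2 and 3, HC replicates 1 and 3, CX replicates 1 and 2 and BS replicate 2, at -0.67 to -0.85.

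**Figure D3:**
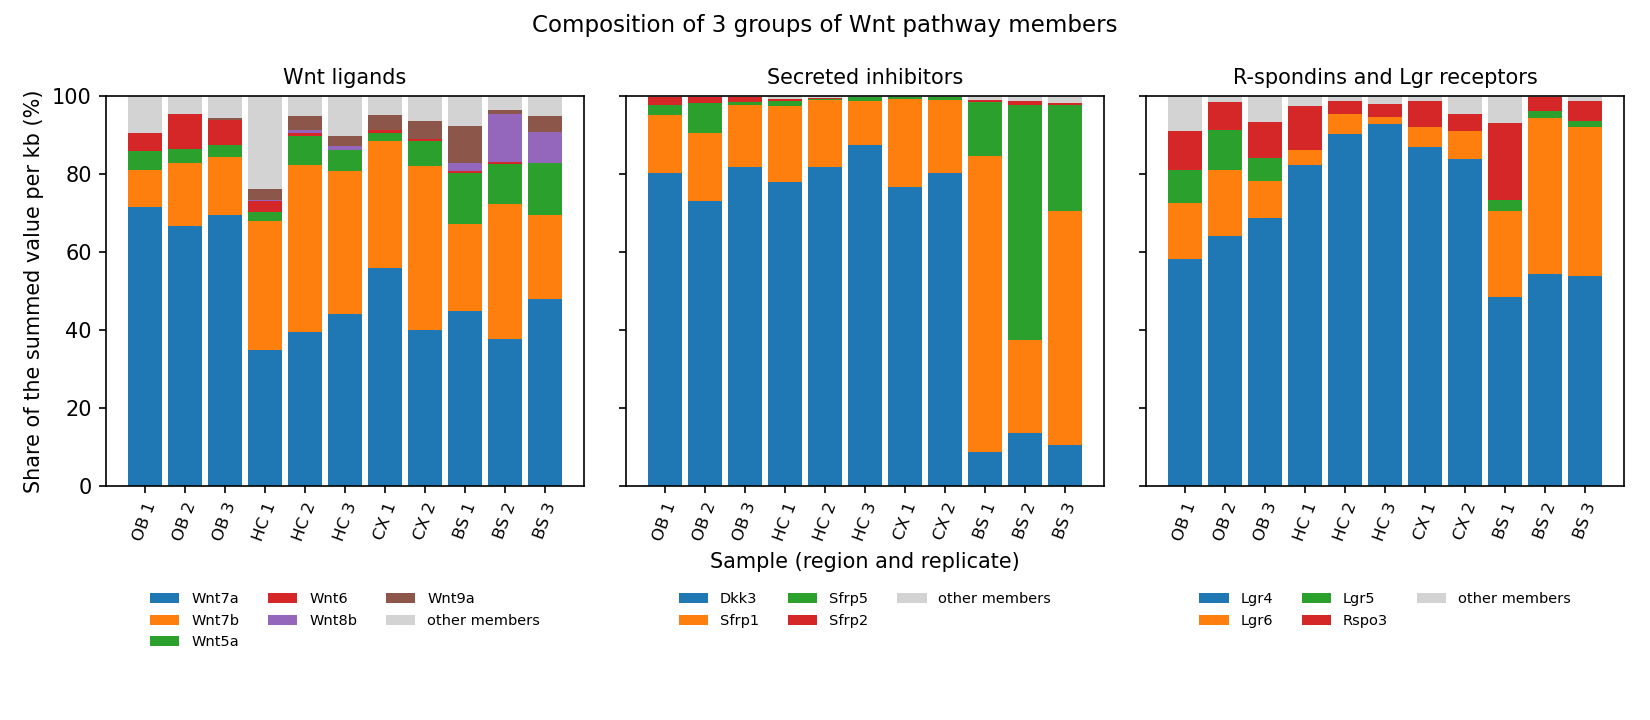
Share of the summed normalized value per kilobase (vertical axis, %) held by named genes of 3 groups, the 19 ligands, the 8 secreted inhibitors and the 7 R-spondins and Lgr receptors, in each sample (horizontal axis), with the remaining members in grey. Wnt7a held 66.7% or more of the ligand sum in OB, and Dkk3 held 73.2% or more of the inhibitor sum outside the BS and 13.5% or less in it.

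Of the 8 secreted inhibitors 5 were tested, and 3 of these differed across regions. Dkk3 (chr7:112116017-112159057), a divergent member of the Dickkopf family, had values of 4166 and 4138 in CX, 1372, 2020 and 2132 in HC, 858, 739 and 961 in OB and 104, 108 and 54.7 in BS. The samples of the 4 regions did not overlap at any step of this order. Pairs of regions were tested in the same fit, in which 7.11% of all genes were called between OB and HC, 4.91% between OB and CX, 15.0% between OB and BS, 1.23% between HC and CX, 4.63% between HC and BS and 10.9% between CX and BS. For Dkk3 all 6 pairs of regions differed (adjusted p between 9.39e-09 and 0.0473, limma), from 1.09 ± 0.24 (SE) for the HC over the OB to 5.59 ± 0.27 (SE) for the CX over the BS on the log2 scale. The CX mean was 46.7-fold that of the BS. In BS the log2 fold change against the rest was -4.28 ± 0.50 (SE, adjusted p = 0.000206, limma) and ranged from -4.53 to -3.97 over the alternatives.

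Sfrp1, which binds Wnts, was at 1591 and 1268 in CX, 445, 548 and 352 in HC, 209, 229 and 242 in OB and 1170, 250.4 and 406 in BS. The CX samples lay above all others, and the OB samples below all others. BS replicate 1, whose fibroblast, ependymal and choroid plexus marker sums were the highest of the BS samples (2157, 522 and 243000), exceeded the other BS samples. A contribution of such cells was not tested. Across regions the adjusted p was 0.00369, and the CX exceeded the OB by 2.65 ± 0.43 (SE, adjusted p = 0.00195, limma) and the BS by 1.53 ± 0.43 (SE, adjusted p = 0.0345, limma). As a regional difference in CX the log2 fold change was 1.95 ± 0.50 (SE, adjusted p = 0.241), and it was 1.79 and 2.12 without CX replicate 1 and CX replicate 2, where the call was lost.

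Sfrp5, of the same family, was highest in BS, at 93.6, 275 and 80.0. Elsewhere it measured 16.3, 44.2 and 4.85 in OB, 12.5, 4.57 and 14.3 in HC and 15.1 and 23.0 in CX. Every BS sample lay above every other sample. The BS exceeded the OB by 2.95 ± 0.73, the HC by 3.61 ± 0.73 and the CX by 2.71 ± 0.81 (SE), with adjusted p = 0.0122, 0.0077 and 0.0445 by limma. Its log2 fold change against the rest was 3.14 ± 0.62 (SE, adjusted p = 0.00944, limma), and it was 3.36 without BS replicate 1. Across regions the adjusted p of 0.0101 became 0.0547 without BS replicate 2, the sample of the highest value.

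Genes were grouped as inhibitors by family name, and their action on the pathway, that of Dkk3 included, was not tested. Per kilobase, these 8 together reached 1575 ± 56.2 (SD, n = 2) in CX, 660 ± 119 (SD, n = 3) in HC, 323 ± 24.7 (SD, n = 3) in OB and 249 ± 99.4 (SD, n = 3) in BS. Dkk3 held between 73.2% and 87.7% of this sum in each OB, HC and CX sample and between 8.78% and 13.5% in BS samples. In BS, Sfrp1 held 53.3% ± 26.6 (SD, n = 3) and Sfrp5 33.9% ± 23.9 (SD, n = 3), and Sfrp5 led in BS replicate 2 with 60.4%. Sfrp2 and Sfrp4 had at most 14.7 in any sample and did not pass the test across regions (adjusted p = 0.0683 and 0.341). Sfrp2 was at 13.0, 9.47 and 9.16 in OB and had no read in either CX sample, and this pair passed the test (3.52 ± 0.90, SE, adjusted p = 0.0358, limma). In HC and BS it was at 1.10 to 6.01, and in 5 of these 6 samples at or under the floor of 3 reads.

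Lgr4, Lgr5 and Lgr6 are receptors for R-spondins, and Lgr5 is itself known as a Wnt target and stem cell marker of epithelia. Lgr4 (chr2:109917647-110014257) had values of 1533 and 1667 in CX, 866, 1395 and 1606 in HC, 409, 555 and 591 in OB and 334, 439 and 330.4 in BS. Samples of the HC and CX all lay above those of the OB and BS. These regions formed pairs, in that the CX and HC did not pass the test against each other (adjusted p = 0.620), nor did the OB and BS (adjusted p = 0.177), whereas the CX exceeded the BS by 2.13 ± 0.25 and the OB by 1.64 ± 0.25 (SE), and the HC exceeded the BS by 1.77 ± 0.23 and the OB by 1.28 ± 0.23 (SE), with adjusted p between 7.31e-05 and 0.0021 by limma. As a regional difference in BS the log2 fold change was -1.38 ± 0.41 (SE, adjusted p = 0.0634), and -1.32 and -1.31 without BS replicate 1 and BS replicate 3, where the call was lost.

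Lgr5 (chr10:115450311-115587780) had values of 103, 158 and 86.7 in OB and 32.6, 26.0 and 16.8 in BS. It was nearly absent elsewhere, with 1 read in HC replicate 3, a value of 0.367, and no read in the other HC samples and in both CX samples. The OB lay above the BS, and the BS above the HC and CX, with no overlap. The OB exceeded the BS by 2.16 ± 0.65 (SE, adjusted p = 0.0349, limma), and its mean was at least 27.7-fold above the floor of 3 reads per CX sample, with the BS mean at least 6.01-fold above that floor. Its regional log2 fold change in OB was 5.02 ± 1.23 (SE, adjusted p = 0.0315, limma), and 3.63 by DESeq2, whose unadjusted p of 0.0603 ended the call. The summed markers of neuroblasts, olfactory sensory neurons and ensheathing cells were highest in OB as well. In BS, where Lgr5 was also detected, 3 of 5 neuroblast markers, 1 of 5 olfactory sensory neuron markers and 4 of 5 ensheathing cell markers had reads, with sums of 86.2 to 217, 2.003 to 4.21 and 53.6 to 263, and Dlx1, Dlx2, Omp, Cnga2, Stoml3, S100a5 and Prss56 had none. Most of the BS neuroblast sum was Cd24a, at 74.6, 150 and 179 in BS replicates 1, 2 and 3. Cd24a had a higher mean in BS (135) than in OB (66.9), unlike the other neuroblast markers. Most of the BS ensheathing cell sum was Sox10, at 45.2, 52.1 and 139, with Mybpc1 at 2.10, 0 and 120. The part of these cell types in the Lgr5 values was not tested.

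Lgr6 ran in another order, with 178, 377 and 272 in BS, 116, 171 and 97.0 in OB, 107 and 169 in CX and 49.97, 94.1 and 35.6 in HC. All BS samples lay above, and all HC samples below, the remaining samples. The BS exceeded the HC by 2.23 ± 0.38 (SE, adjusted p = 0.00206, limma), and no other pair passed the test. Regional log2 fold changes were 1.48 ± 0.43 (SE, adjusted p = 0.0596) in BS and -1.59 ± 0.41 (SE, adjusted p = 0.529) in HC. These calls were lost without BS replicate 2 (1.22) or BS replicate 3 (1.46), and without HC replicate 3 (-1.28), respectively. Lgr4 held 88.5% ± 5.54 of the summed level per kilobase of R-spondins and Lgr receptors in HC and 52.3% ± 3.24 in BS, while Lgr6 held 3.69% ± 1.76 and 33.4% ± 9.82 (SD, n = 3 each).

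R-spondins themselves were low. Rspo3, the highest, lay between 16.0 and 71.5 in every sample and did not pass the test across regions (adjusted p = 0.710). Rspo2 had values of 15.6, 14.6 and 22.4 in HC, 2.51 and 10.7 in CX, 0, 0 and 3.77 in OB and 7.36, 0 and 0 in BS. All HC samples lay above the others, and the log2 fold change in HC was 2.85 ± 0.93 (SE, adjusted p = 0.698). That call was lost with edgeR, with DESeq2, with a pseudocount of 0.25 and without any one OB or HC replicate or BS replicate 2 or 3, at 2.66 to 2.99 for these omissions. Rspo1 reached at most 24.5 and was not called.

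Of the 6 Axin and TCF/LEF genes, whose proteins act between the receptor and the target genes, 1 differed across regions. Tcf7l2 had values of 816, 858 and 1041 in OB, 838 and 695 in CX, 420.4, 631 and 614 in HC and 451, 601 and 305 in BS. The OB samples lay above all HC and BS samples and overlapped CX replicate 1. The OB exceeded the BS by 1.04 ± 0.24 (SE, adjusted p = 0.00727, limma), and no other pair passed the test. Across regions the adjusted p of 0.0217 became 0.0575 without OB replicate 2, 0.0807 without OB replicate 3 and 0.0563 without BS replicate 3. Tcf7l1 was at 117, 133 and 143 in OB and at 66.7 to 103 elsewhere, with no overlap, at a log2 fold change of 0.63 ± 0.21 (SE, adjusted p = 0.117). That OB call was lost without any one of OB replicates 1, 2 and 3, HC replicates 2 and 3, CX replicate 1 and BS replicates 1 and 3, at 0.57 to 0.71, and with a pseudocount of 5 or a mean for each region, at 0.61 each.

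Axin2 and Lef1, both commonly read as Wnt targets, did not pass the test across regions. Lef1 lay between 52.8 and 249 (adjusted p = 0.624) and Axin2 between 50.1 and 169 (adjusted p = 0.219). Both CX samples of Axin2, at 147 and 169, lay above all others, at 141 or less. Axin1 and Tcf7 were likewise not called.

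**Figure D4:**
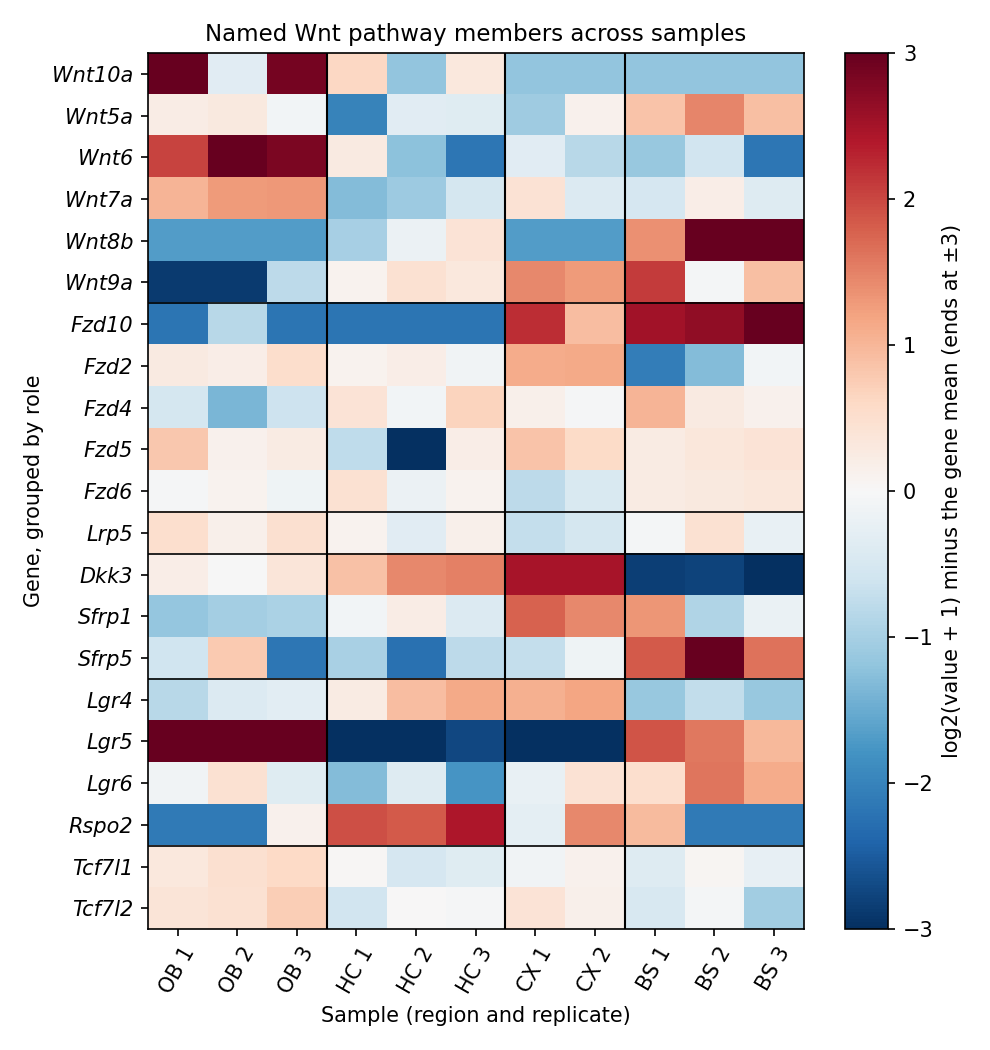
Log2(value + 1) minus the mean of the gene over all samples (colour, red above and blue below the mean, ending at ± 3) for the 21 members called across regions or past the thresholds in a region (rows, grouped by role and separated by lines) in each sample (columns, separated by region). Wnt6, Wnt7a and Lgr5 were above their mean in all OB samples, Sfrp5, Fzd10, Wnt8b and Lgr6 in all BS samples, and Dkk3 was below its mean in all BS samples.

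Genes of the pathway outside the 52 members were taken from a list of 51, written with earlier results of these data known. Of the list, 50 were found by symbol and 47 tested. Of these, 10 differed across regions (21.3%), beside the 16.5% of all genes. Without OB replicate 3 the count was 6, for which the share of all genes is not given. They were the secreted antagonists Frzb and Sostdc1, the receptors Ror1, Ror2 and Ryk, the ubiquitin ligase Rnf43, which removes Frizzled receptors, the β-catenin inhibitor Ctnnbip1, the co-repressor Tle4, and Celsr1 and Daam1 of the planar cell polarity branch. Wls and Porcn, which are needed to secrete any Wnt, did not pass the test across regions (adjusted p = 0.186 and 0.216), nor did Ctnnb1, which encodes β-catenin (adjusted p = 0.415). The HC samples of Wls, at 276, 284 and 277, nevertheless lay below every other sample, at 312.5 or more.

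Frzb, a relative of the Sfrp proteins, was at 767, 642 and 712 in OB, 8.74, 27.4 and 7.71 in HC, 13.8 and 19.9 in CX and 4.21, 0 and 2.10 in BS. The OB samples lay far above all others, at a log2 fold change of 6.52 (adjusted p = 4.00e-04, limma). Frzb is also 1 of the 5 olfactory ensheathing cell markers, all of which were higher in OB, and the part of those cells was not tested. Sostdc1 had values of 883, 328 and 632 in HC and 1509, 186 and 817 in BS, against 28.9 and 9.20 in CX and 0, 3.16 and 0.539 in OB. Its order over the regions was that of the choroid plexus marker sums given above, and within BS, HC and CX the samples also ranked alike in both. The part of choroid plexus RNA was not tested.

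Ctnnbip1 was at 653, 671 and 688 in OB and at 76.8 to 307 elsewhere, without overlap (log2 fold change 2.09, adjusted p = 0.0014, limma). Celsr1 was lowest in BS, at 19.97, 22.0 and 21.1, against 77.1 or more in every other sample (log2 fold change -3.24, adjusted p = 0.00056, limma). The order of its region means, CX, HC, OB and BS, was that of Dkk3. Ror2, a receptor of Wnt5a, had 50 reads in all, 44 of them in BS. It was at 17.9, 38.1 and 16.8 in BS and at 1.58 or less in every other sample (log2 fold change 4.03, adjusted p = 0.0037, limma). Both Ror2 and Wnt5a therefore had all BS samples above the rest. Ror1, the related receptor, was at 27.1, 37.9 and 40.9 in OB and at 2.51 and 0 in CX. The HC and BS samples lay between 6.01 and 37.9, overlapping the OB through BS replicate 1.

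The other called pathway genes were Ryk, Daam1, Tle4 and Rnf43. Ryk, a Wnt receptor with a kinase-like domain, was at 607, 775 and 818 in OB and at 275, 501 and 362 in BS, without overlap between them (adjusted p = 0.0348 across regions, limma). Daam1, which links Dishevelled to the cytoskeleton, was lowest in OB, at 433, 402 and 319, against 469 or more in every other sample (adjusted p = 0.00894, limma). Tle4 was lowest in BS, at 741, 517 and 543, and no BS sample reached the lowest value elsewhere (adjusted p = 0.0261, limma). Rnf43 was at 1.09, 7.89 and 0.539 in OB and between 7.34 and 35.7 in the other regions (adjusted p = 0.0429, limma), and OB replicate 2 overlapped HC replicate 3.

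Of 10 further Wnt target genes, also listed with earlier results of these data known, 8 were tested and 3 differed across regions (37.5%). The share over all genes was 16.5%, and neither this list nor the pathway list can test for an excess over it. Nkd2, a feedback inhibitor that acts on Dishevelled, was at 127, 90.0 and 64.6 in OB and at 18.1 or less elsewhere (log2 fold change 3.89, adjusted p = 0.0097, limma). Apcdd1, a membrane inhibitor of the pathway, was at 390, 426 and 374 in OB and at 181 or less elsewhere (log2 fold change 1.70, adjusted p = 0.0028, limma). Tnfrsf19 was at 2508 and 2064 in CX and at 537 to 1375 elsewhere (adjusted p = 0.00133 across regions, limma). For Nkd2 and Apcdd1 no OB sample overlapped another region, as for Wnt7a, whereas Axin2 overlapped between OB and the other regions.

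**Figure D5:**
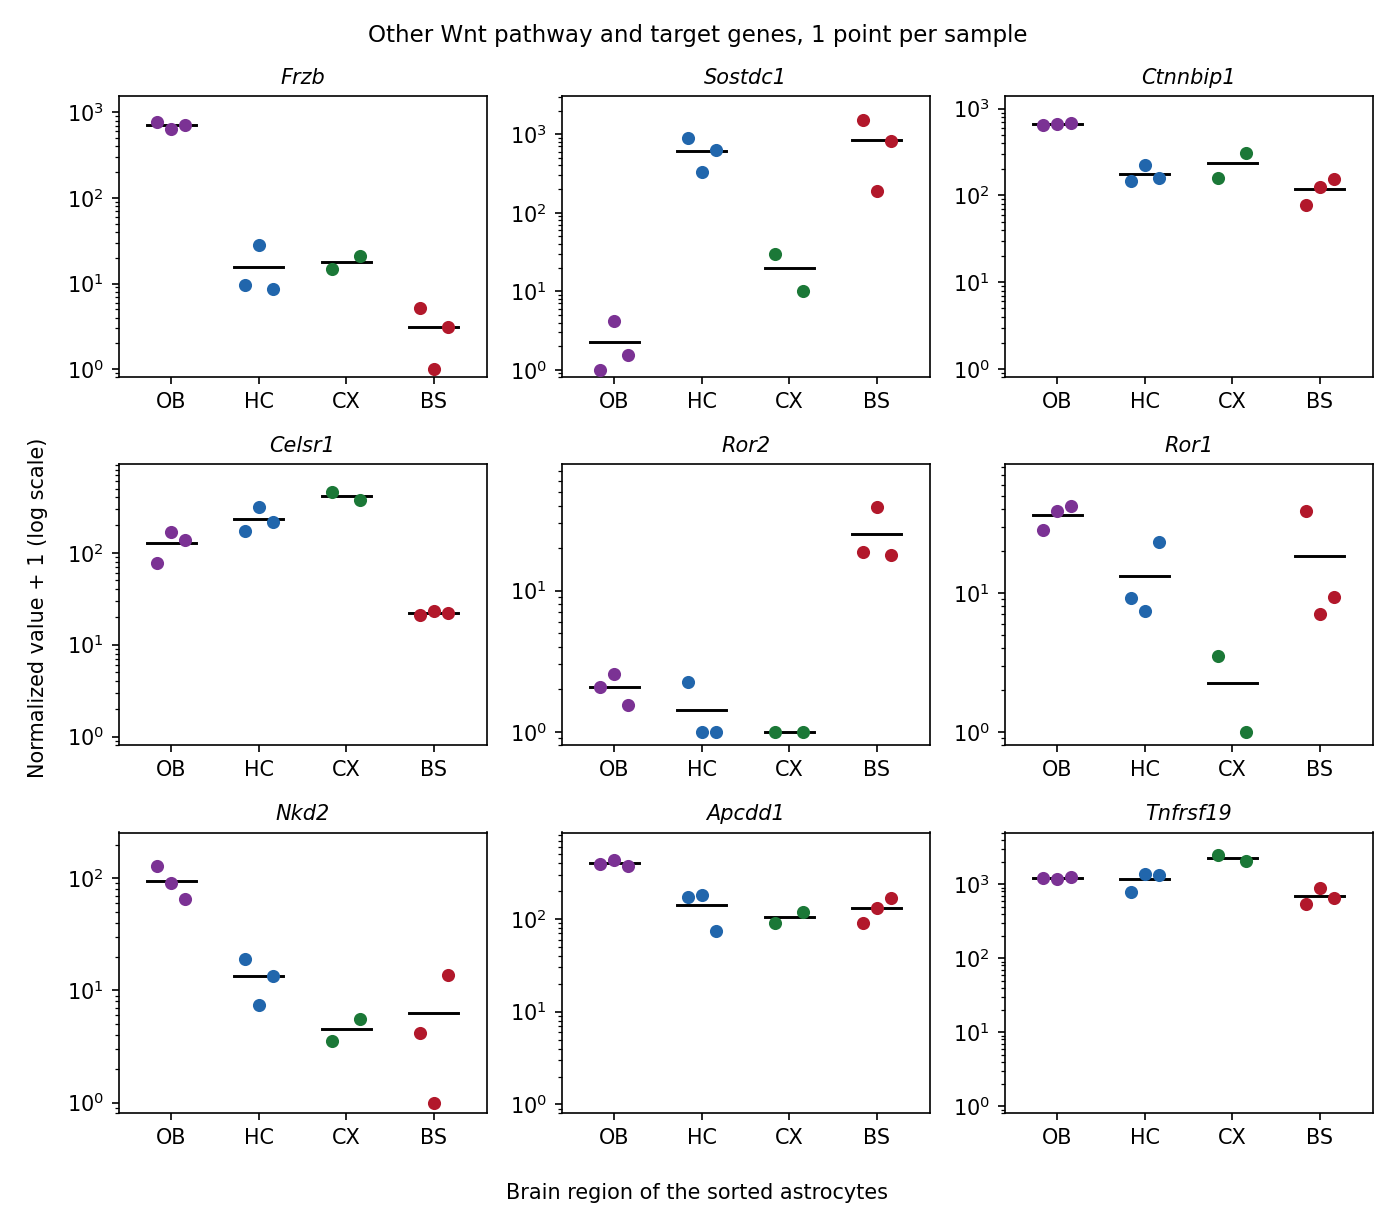
Normalized value + 1 on a log scale (vertical axis) of 9 other pathway and target genes called across regions, by brain region (horizontal axis). Each point is a sample and each line a region mean. Frzb, Ctnnbip1, Nkd2 and Apcdd1 were highest in OB samples, Sostdc1 in HC and BS samples, Ror2 in BS samples, and Celsr1 lay between 19.97 and 22.0 in BS.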

How the data were processed

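RNA was profiled from FACS-sorted Aldh1l1-eGFP astrocytes. Per the labels and methods, libraries were made from 5 ng of total RNA with the Trio RNA-Seq kit, which depletes rRNA, and mapped with STAR 2.5.0a to mm10; the authors counted reads on UCSC transcripts. The deposited unit is a normalized signal, the counts of each sample divided by a DESeq2 (1.20.0) size factor. Whole reads were recovered from it, since 100% of values above 0 were multiples of a step per sample (tolerance 0.01 reads). Whether counting used strand is not given in the sources used here, and reads of overlapping or antisense genes cannot be told apart. Total reads per sample set the precision, and the shallowest samples, in BS, had the coarsest steps.

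Values were tested as log2(value + 1) with limma 3.58.1 (R 4.3.3), trend, two-sided, after filterByExpr of edgeR 4.0.16 on the recovered reads, with all 11 samples in the fit and Benjamini-Hochberg adjustment over all 13875 tested genes. Adding 1 understates changes of low genes. A moderated F test across region means, each region against the rest, and the 6 region pairs were run. Alternatives were edgeR and DESeq2 1.42.0 on recovered reads, limma on TMM-scaled CPM, pseudocounts of 0.25 and 5, no filter, a replicate block, a mean for each region, the adjusted p, a limit of 5 RPM (added after the data were seen), and leaving out each sample. The steps were also run on simulated counts, with outcomes not given here. These changed 1 region at a time and held no differences among the other regions, unlike the real data. Levels per kilobase used GENCODE M21 exon lengths, and all gene coordinates are GRCm38, the mm10 assembly. Promoters were matched by symbol to RefSeq. Python 3.11.15 and matplotlib 3.10.9 made tables and plots.

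Named are members called across regions or past the thresholds on p, fold and value in a region, the highest other member of each role, and of the pathway lists the called genes, up to 10. Wnt2b, Wnt3, Wnt4, Axin2 and the remaining uncalled genes given by value were chosen after their values were seen. Members and lists were chosen with earlier results of these data known.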

Additional observations from a re-analysis of the deposited data

How the results depend on the processing

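Under the settings other than leaving out a sample, 271 values of single genes did not change sign or call and 32 no longer passed the threshold. With a sample left out, 329 did not change and 72 no longer passed. No direction reversed in these. The F test called 14 to 16 members under edgeR, DESeq2, TMM, other pseudocounts, no filter and the block, and 11 to 16 with a sample left out, against 15. The target genes called lay between 3 and 4.

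With a mean for each region, the members past the thresholds were 11 in OB (7 in the main analysis), 8 in HC (4) and 8 in CX (3). This design takes the spread from within regions. With it 21.9% of all genes in OB, 12.1% in HC and 17.1% in CX had an unadjusted p under 0.05. In the main analysis these shares were 17.6%, 5.69% and 9.89%. With the adjusted p the members past the thresholds were 0 in HC (0.00% of all genes), 0 in CX (0.0144%) and 5 in BS (5.31%), against 8 in BS in the main analysis. With both this design and the adjusted p they were 9 in OB (9.33%), 6 in HC (2.03%), 5 in CX (4.14%) and 10 in BS (13.2%). With a sample left out they ranged from 5 to 8 in OB, 1 to 5 in HC, 0 to 4 in CX and 4 to 9 in BS, at the adjusted p from 0 to 5 in OB, 0 to 1 in CX and 2 to 7 in BS with 0 in HC throughout, and the other pathway genes called across regions from 6 to 12 (10). Leaving out a CX sample leaves a lone one, which is assumed to vary like the other groups.

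The replicate number was shared across regions, and same-numbered samples did not deviate together in every pair of regions. Correlations of their deviations lay between -0.16 and 0.25 over 15 pairs, 3 of them over 0.1. Between OB and HC they were 0.195, 0.074 and 0.25 for replicates 1, 2 and 3. Differently numbered OB and HC samples had correlations between -0.224 and 0.028. Whether OB and HC samples shared animals or batches was not tested. With the replicate block, 2 members were past the thresholds in HC and 1 in CX, where Rspo2 and Wnt7a in HC and Fzd6 and Lrp5 in CX were lost, as were Tcf7l1 and Wnt10a in OB, and no other count of calls moved by over 1.5 times. Depth limits the statements on Wnt6, Wnt8b, Wnt9a, Wnt10a, Fzd10 and Rspo2, which rest on 63 to 141 reads over all samples. It also limits those on Sfrp2 and Ror2, which rest on 62 and 50 reads.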
